A study of Mus musculus with 6 samples.

Results

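The genes of the proteasome, the protease complex that degrades ubiquitin-tagged proteins, were followed in the prefrontal cortex of aged mice after surgery. They were the protein-coding mouse genes whose symbol begins with Psma, Psmb, Psmc, Psmd, Psme, Psmf or Psmg and a number. Of 50 such symbols, 49 had a row among the 21006 genes measured, and Psmb11 was not analysed here. The unit was FPKM, which counts RNA fragments per kilobase of a gene's exons after scaling for depth, and no protein and no protease activity was measured. Male wild-type C57BL/6 mice, 18 months old by the age label (the sample titles carry the code 17M), formed 2 groups of 3, with 1 sample from each animal. Mice called PND, which stand for postoperative neurocognitive disorder, received isoflurane anesthesia together with an exploratory laparotomy, in which the abdomen is opened and inspected. CON mice had neither, so the effects of anesthesia and of surgery cannot be told apart. The care of the wound with lidocaine cream and povidone iodine went with the operation and cannot be told apart from it either. All 6 mice went through the same behavioural tests (open field, fear conditioning and Barnes maze), and all were under deep isoflurane when the tissue was taken. That was soon after the Barnes maze, which ran on postoperative days 2 to 6, so the levels are not those just after surgery. The question was whether the core, the regulatory particle or the immunoproteasome differed in mRNA level between PND and CON, since the study named proteasomal degradation of ubiquitinated proteins among its enriched functions.

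The proteasome is built from a barrel-shaped core (20S) and a cap (19S). The core stacks rings of alpha subunits (Psma), which form the gate, on rings of beta subunits (Psmb), of which Psmb5, Psmb6 and Psmb7 carry the proteolytic sites. The cap binds ubiquitin chains, removes them and feeds the unfolded protein into the barrel with a ring of ATPases (Psmc) and a set of other subunits (Psmd). In immune cells and under interferon-gamma the catalytic subunits are replaced by Psmb8 (in place of Psmb5), Psmb9 (in place of Psmb6) and Psmb10 (in place of Psmb7), and the resulting immunoproteasome is known for cutting peptides for antigen presentation. Other caps open the gate without ubiquitin (Psme), Psmf1 inhibits the core, and Psmd5, Psmd9, Psmd10 and Psmg1 to Psmg4 are chaperones that help to assemble the particles. In neurons, proteasomal degradation takes part in turnover of synaptic proteins and in plasticity.

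The estimated depth of the samples lay between 7201406 and 9393042 fragments, and a proteasome gene had a median of 897 fragments over the 6 samples. Fewer than 60 fragments stood behind 6 of the genes. The tissue label was checked against markers, and 8 of 8 genes of cortical excitatory neurons were present, with a summed level of 158 to 194 FPKM in PND and 158 to 245 FPKM in CON. All 5 markers of the striatum, a neighbouring region, were present too, with a sum of 52.3 to 65.0 FPKM in PND and 38.6 to 80.1 FPKM in CON. Of the 49 genes, 18 shared a stretch of at least 200 bases with at least 95% identity with another gene or pseudogene, and 15 overlapped an exon of another gene. How the counting divided such reads was not known, so their levels are uncertain. The genes with a near-identical stretch were Psma2, Psma3, Psma4, Psma5, Psmb3, Psmb5, Psmb7, Psmb9, Psmc1, Psmd1, Psmd2, Psmd11, Psmd13, Psme1, Psme2, Psme2b, Psmg3 and Psmc3ip. Overlapping exons were found for Psma4, Psma5, Psmb5, Psmb7, Psmb8, Psmb9, Psmc3, Psmd1, Psmd3, Psmd9, Psmd13, Psme1, Psme2b, Psmg3 and Psmc3ip.

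Most proteasome genes were readily measured in this tissue, and low levels were found in several classes. A mean of at least 10 FPKM was reached by 21 genes, 21 lay between 1 and 10 FPKM and 7 lay under 1 FPKM. The 6 ATPase genes included the most abundant gene and ranged from 8.82 FPKM (Psmc4) to 94.7 FPKM (Psmc6). The 11 other cap genes, all named Psmd, ranged from 3.20 FPKM (Psmd3) to 51.9 FPKM (Psmd7). In the core, the 7 alpha genes ranged from 5.04 FPKM (Psma3) to 38.8 FPKM (Psma2) and the 7 constitutive beta genes from 4.11 FPKM (Psmb5) to 33.8 FPKM (Psmb1). The median level was 8.77 FPKM in the core and 15.9 FPKM in the cap. Since the assembled core and cap hold their subunits in fixed numbers, the 10.7-fold range within the ATPase ring and the 7.69-fold range within the alpha ring are ranges of mRNA only. Across the 42 genes with at least 1 FPKM, the level correlated with GC content (Spearman rho -0.42 over genes) and hardly with exon length (rho 0.13), as a description over genes that share the same 6 libraries.

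**Figure D1:**
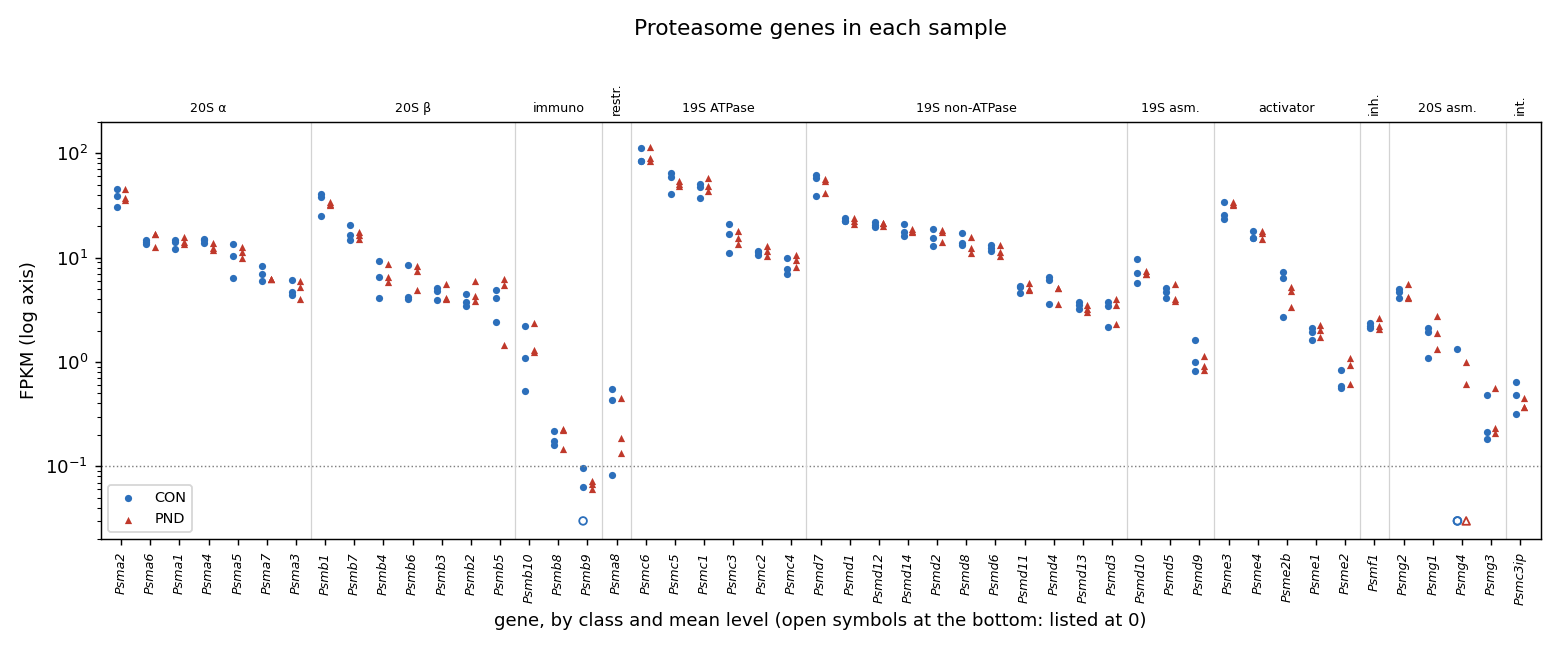
The level of each proteasome gene in FPKM (log axis) in each of the 6 samples, CON as blue circles and PND as red triangles, with the genes grouped by class and ordered by mean level. The dotted line marks 0.1 FPKM, and open symbols at the bottom stand for values listed at 0. The ranges of triangles and circles overlap in 48 of 49 genes, and Psmb8 and Psmb9 sit near or under the dotted line.

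No proteasome gene passed a test between PND and CON. The comparison used limma on log2(FPKM + 0.1) over 18185 genes, and 48 of the 49 genes entered it, because Psmb9 had a mean below 0.1 FPKM. An unadjusted p below 0.05 was reached by 0 of the 48, where 3.13% of all genes tested reached it (1.73% higher and 1.4% lower in PND). By the cut-off of the study, a change of more than 2-fold with an unadjusted p below 0.05, 0 of the 48 passed, beside 1.33% of all genes. Here both the p and the fold came from limma on log2(FPKM + 0.1). The study names edgeR and limma and took its fold changes from FPKM, so its own calls can differ. An adjusted p below 0.05 was given to 0 of the 48 and to 0.011% of all genes. The smallest unadjusted p of a proteasome gene in limma was 0.108 (Psme3), and every adjusted p was 0.9999. Below, each fitted fold change of PND over CON is followed by its 95% interval from limma.

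The differences were also small in size. The log2 fold change was above 0 for 27 genes and below 0 for 21, with a median of 0.024 beside 0.012 over all genes tested. The median absolute log2 fold change was 0.083 over the 42 proteasome genes with at least 1 FPKM, and 0.12 over the 12387 genes of that level. For 43 of the 48 genes the fitted change was smaller than 1.2-fold in either direction. The 95% interval of the change stayed inside 2-fold for 40 genes and inside 1.5-fold for 29. The 8 genes whose interval reached beyond 2-fold were Psmb5, Psmb6, Psmb10, Psma8, Psme2, Psme2b, Psmg3 and Psmg4, so for these a 2-fold difference remained within the interval given by 3 animals a group. Fold changes are on the log2(FPKM + 0.1) scale and understate the change of genes with low values.

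**Figure D2:**
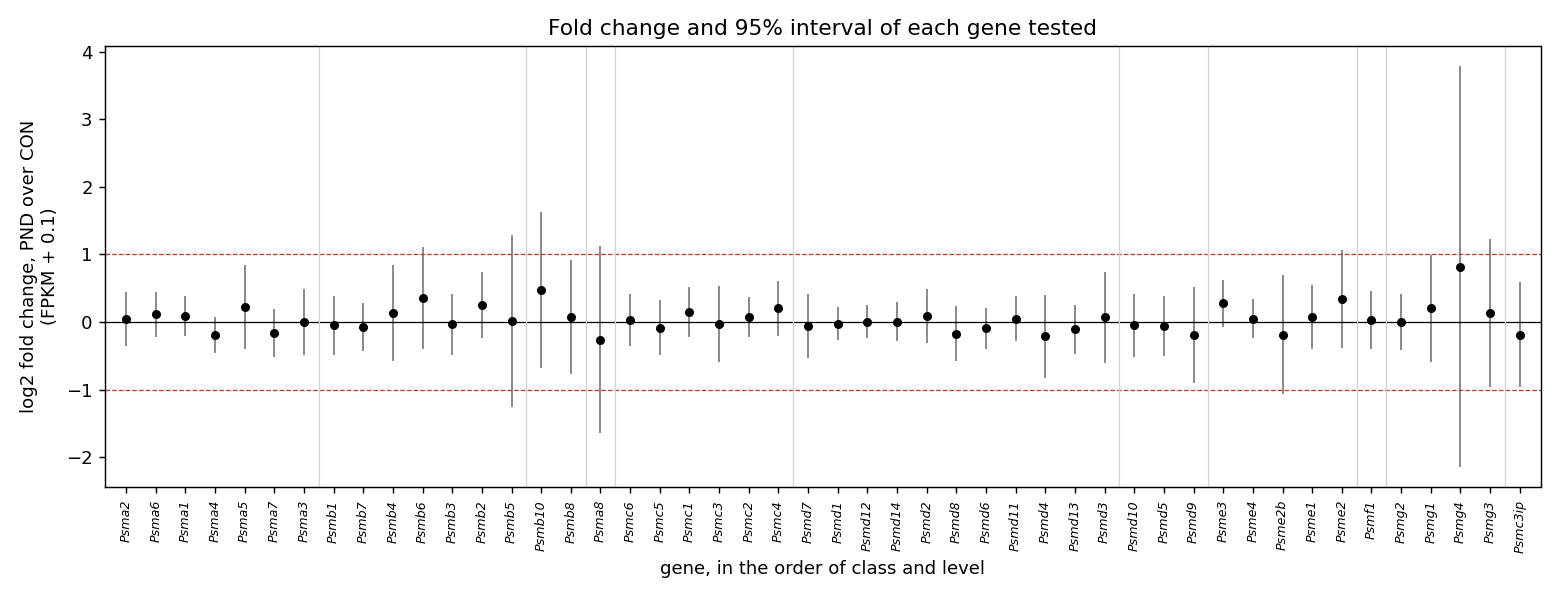
The log2 fold change of PND over CON of the 48 proteasome genes tested (points) with the 95% interval from limma (lines), on the log2(FPKM + 0.1) scale, in the order of class and level. Dashed lines mark a 2-fold change in either direction. Every interval crosses 0, and the widest belongs to Psmg4, which was listed at 0 in 3 samples.

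No gene of the core or of the cap passed the test. The median log2 fold change was 0.030 over the 14 constitutive core genes, of which 8 were above 0 and 6 below. Over the 17 cap genes it was 0.005, with 9 above and 8 below. The cap was measured more tightly, with the interval inside 2-fold for 17 of 17 genes, against 12 of 14 in the core, where Psmb5 and Psmb6 were the exceptions. The summed level of the 48 genes was 680, 641 and 675 FPKM in the PND samples and 644, 697 and 639 FPKM in the CON samples, and these ranges overlap.

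Among the immunoproteasome genes, neither a rise nor a fall was detected. Psmb8 (ENSMUSG00000024338, chr17:34197721-34201454 on GRCm38), which gives the chymotrypsin-like site of the immunoproteasome, had 0.147, 0.230 and 0.221 FPKM in the PND samples and 0.173, 0.159 and 0.217 FPKM in the CON samples. The 2 groups covered nearly the same range, and the fitted change was 1.05-fold (0.588 to 1.88). About 17.6 fragments in PND and 14.1 in CON stood behind these values, and the interval still holds changes of up to 1.88-fold. Psmb9 (chr17:34181987-34187764), close by on the same chromosome, had 0.0717, 0.0602 and 0.0676 FPKM in PND and 0.0635, 0.0973 and 0 FPKM in CON. Each of these values was at or under 3 fragments, and no fold is given. Psmb9 also shares 212 bases of transcript with Tap1, which begins beside it on the opposite strand.

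Psmb10 (chr8:105935735-105938444), which carries the trypsin-like activity, was the most abundant of the trio. It had 1.25, 1.29 and 2.35 FPKM in PND and 0.525, 2.22 and 1.09 FPKM in CON. The highest and the lowest value differed 4.47-fold, the widest range of any proteasome gene above 1 FPKM, and both groups held a high and a low sample. The fitted change was 1.38-fold (0.622 to 3.08). It depended on single samples of both groups, since the log2 fold change of 0.47 was about 0 without CON replicate 1, 0.19 without PND replicate 3 and 0.94 without CON replicate 2, and none of these values passed the test.

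The constitutive counterparts were far more abundant in every sample. Psmb5 (chr14:54614119-54618022) had 6.23, 1.45 and 5.50 FPKM in PND and 4.14, 4.93 and 2.39 FPKM in CON. A single PND sample, replicate 2, lay lowest, on about 10.3 fragments, and carried much of the spread. The fitted change was 1.01-fold (0.417 to 2.46). The log2 fold change of 0.02 became 0.66 without that sample and -0.35 without PND replicate 1, and neither passed the test. Psmb5 shares 796 bases at 98.9% identity with the pseudogene Gm3375. Psmb6 (chr11:70525367-70527858) had 7.42, 4.93 and 8.26 FPKM in PND and 3.99, 8.45 and 4.21 FPKM in CON. Here CON replicate 2 lay highest of the 6 and the other CON samples lowest, with a fitted change of 1.28-fold (0.755 to 2.17). Without CON replicate 2 the log2 fold change of 0.36 became 0.70 (limma, unadjusted p = 0.025, adjusted p = 0.83). In that setting 5.28% of all genes had an unadjusted p below 0.05. Psmb7 (chr2:38588036-38644087), which overlaps Nek6, had 17.5, 15.03 and 16.3 FPKM in PND and 14.7, 16.6 and 20.7 FPKM in CON. The PND samples all lay within the range of the CON samples, and the fitted change was 0.948-fold (0.742 to 1.21).

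Set against their counterparts, Psmb8 and Psmb10 were a small part of the pair. The mean level of Psmb8 was 4.66% of that of Psmb5 and that of Psmb10 was 8.67% of Psmb7. For Psmb8 the share was 2.36%, 15.8% and 4.02% in the PND samples and 4.19%, 3.23% and 9.05% in the CON samples. The 15.8% rests on the low Psmb5 value of PND replicate 2. For Psmb10 the share was 7.14%, 8.61% and 14.4% in the PND samples and 3.58%, 13.4% and 5.30% in the CON samples. The log2 ratio was higher in PND by 0.55 for this pair (exact permutation test, two-sided, p = 0.4, adjusted over 3 pairs 0.75). That adjusted value was set by the pair of Psmb9 over Psmb6, whose ratio cannot be read. The log2 ratio differed by 0.06 for Psmb8 over Psmb5 (exact p = 0.9, adjusted 0.9). Its highest and its lowest value both lay in PND, at -2.23 in replicate 2 and -4.68 in replicate 1. For Psmb9 over Psmb6 no difference can be read, since Psmb9 lay at or under 3 fragments in every sample and the pseudocount set the sign of the ratio's change. With 3 animals a group the smallest p this test can give is 0.1, so it could not pass 0.05.

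**Figure D3:**
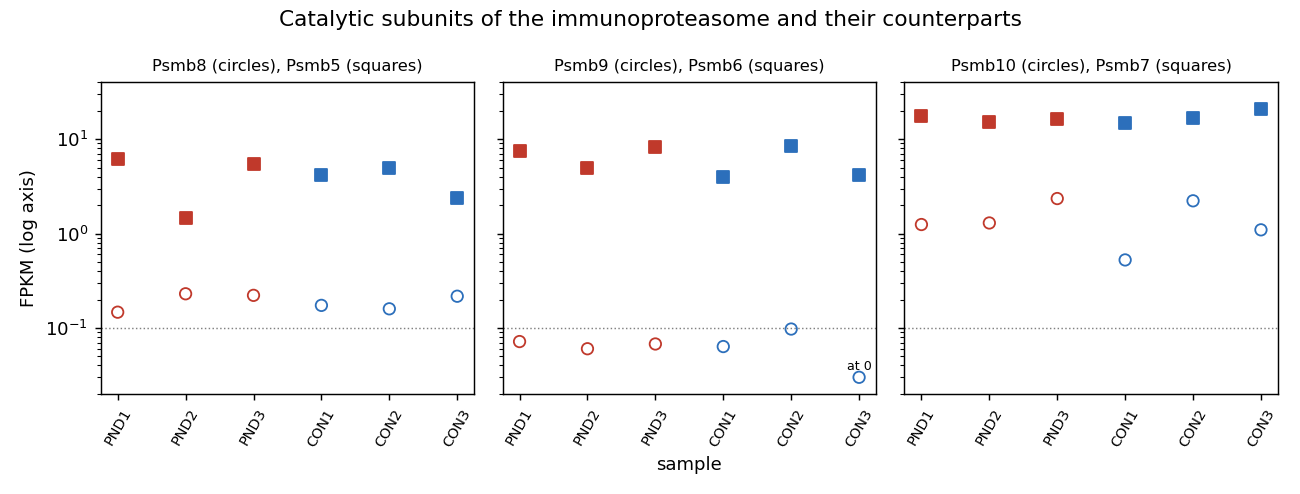
Levels in FPKM (log axis) of each immunoproteasome gene (open circles) and its constitutive counterpart (filled squares) in the 6 samples, PND in red and CON in blue. The dotted line marks 0.1 FPKM, and the value of Psmb9 listed at 0 is drawn at the bottom. In all 6 samples the squares stand above the circles, by 21.5-fold on the means for Psmb5 over Psmb8 and 11.5-fold for Psmb7 over Psmb10.

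In bulk tissue, fewer cells of a type and less RNA per cell cannot be told apart. Cells that normally express the immunoproteasome were therefore looked at by their markers. Of 12 microglial markers, 6 were higher and 6 lower in PND, and their sum was 83.1 to 96.3 FPKM in PND and 85.1 to 103 FPKM in CON. Of 8 endothelial markers 5 were higher, with sums of 48.5 to 57.2 and 43.3 to 54.0 FPKM. In each of these lists 1 marker had an unadjusted p below 0.05 in limma (adjusted p = 0.9999), namely microglial P2ry12, lower in PND at 0.590-fold (0.420 to 0.829), and endothelial Ly6c1, higher at 1.73-fold (1.24 to 2.42). Of 7 T cell markers 4 were measured, with a sum of 0.894 to 2.04 FPKM in CON and at most 1.65 FPKM in PND, and Cd3e, Cd3g and Lck were each at 0 in at least 1 sample. That sum was almost all Cd4 (mean 1.33 FPKM), since none of the other T cell markers had a mean above 0.05 FPKM. The part of these cells in the immunoproteasome levels was not tested.

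Promoter sequences are shown because the constitutive and the immunoproteasome subunits are known to be controlled by different factors. The constitutive genes are targets of Nfe2l1 and Nfe2l2, which bind antioxidant response elements (core letters TGACNNNGC), and the immunoproteasome genes answer to interferon through gamma-activated sites (TTCNNNGAA) and interferon-stimulated response elements. In the 250 bases before the start in RefSeq (GRCm38.p6, both strands searched), 41 of the 49 genes had an entry. The antioxidant core was found in 5 of 41 (12.2%), beside 10.2% of 32851 promoters of all genes. These 5 were Psmb5, Psmb6, Psmc6, Psmd12 and Psmd9, whose log2 fold changes in PND were 0.02, 0.36, 0.03, 0.01 and -0.19. They are printed below in the direction of transcription, up to the first base inside an annotated exon, with every motif searched in capitals:
Psmb5 (chr14:54618023-54618245, minus strand): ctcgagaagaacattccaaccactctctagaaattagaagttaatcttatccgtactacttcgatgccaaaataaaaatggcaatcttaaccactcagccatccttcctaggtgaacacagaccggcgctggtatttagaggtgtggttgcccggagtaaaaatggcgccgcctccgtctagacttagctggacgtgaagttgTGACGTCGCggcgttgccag
Psmb6 (chr11:70525107-70525356, plus strand): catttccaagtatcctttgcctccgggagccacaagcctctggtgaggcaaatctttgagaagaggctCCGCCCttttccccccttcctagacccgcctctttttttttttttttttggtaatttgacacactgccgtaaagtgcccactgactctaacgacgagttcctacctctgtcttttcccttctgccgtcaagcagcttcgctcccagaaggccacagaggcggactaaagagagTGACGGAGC
Psmc6 (chr14:45329574-45329787, plus strand): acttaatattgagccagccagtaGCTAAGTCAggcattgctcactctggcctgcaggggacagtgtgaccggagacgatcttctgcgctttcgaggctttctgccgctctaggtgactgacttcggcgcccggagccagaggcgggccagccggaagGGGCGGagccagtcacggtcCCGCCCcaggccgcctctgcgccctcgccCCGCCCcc
Psmd12 (chr11:107479278-107479483, plus strand): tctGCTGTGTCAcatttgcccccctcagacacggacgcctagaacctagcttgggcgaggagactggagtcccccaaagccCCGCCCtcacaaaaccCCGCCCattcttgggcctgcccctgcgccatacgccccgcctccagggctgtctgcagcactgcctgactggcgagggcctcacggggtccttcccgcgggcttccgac
Psmd9 (chr5:123227940-123228189, plus strand): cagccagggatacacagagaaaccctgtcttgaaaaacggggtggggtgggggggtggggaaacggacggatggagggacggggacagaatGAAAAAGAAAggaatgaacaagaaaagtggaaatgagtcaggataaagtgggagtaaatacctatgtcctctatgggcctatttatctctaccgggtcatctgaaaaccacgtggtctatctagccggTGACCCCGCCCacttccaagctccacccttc
The antioxidant core reads TGACGTCGC in Psmb5 and TGACGGAGC in Psmb6, close to the start in both, while Psmc6 and Psmd12 hold it on the other strand at the far end of the window. In Psmd9 it shares letters with a GC box.

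The gamma-activated site was found in 2 of 41 genes (4.88%, all promoters 7.02%), namely Psmb8 and Psmg1, and the interferon-stimulated element in 3 of 41 (7.32%, all promoters 2.98%), namely Psmb3, Psmd4 and Psmd9. The site of Psmb8 is shown with its flanks because Psmb8 was the only catalytic gene of the immunoproteasome with an interferon motif in this window, and it lies in an exon of another annotated transcript:
Psmb8 (chr17:34198088-34198116, plus strand): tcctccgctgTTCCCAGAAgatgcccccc
The most frequent motif was the GC box (GGGCGG), in 22 of 41 genes (53.7%, all promoters 32.7%). The CCAAT box (CCAAT) was in 14 of 41 (34.1%, all promoters 33.8%) and the TATA box (TATAAA) in 4 of 41 (9.76%, all promoters 12.4%). The window of Psmb10 held none of the motifs. These are matches of letters, and nothing about binding was measured.

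Of the alpha ring of the core, Psma4 was the only proteasome gene whose groups did not overlap, 1 of 48 tested (2.08%), while 7.66% of all genes tested had groups apart (3.88% with PND lower). Psma4 (chr9:54950790-54958030) had 13.66, 12.4 and 11.9 FPKM in PND and 13.69, 15.003 and 14.7 FPKM in CON. Its lowest CON sample and its highest PND sample were almost equal, and the means were 12.7 ± 0.906 and 14.5 ± 0.695 FPKM (SD, n = 3 each), a fitted change of 0.874-fold (0.728 to 1.05). It shares 783 bases at 96.8% identity with the pseudogene Gm6542. Psma2, the most abundant alpha gene, had 44.9, 37.4 and 35.3 FPKM in PND and 45.8, 39.0 and 30.3 FPKM in CON (1.03-fold, 0.780 to 1.36). The least abundant, Psma3, had 5.17, 5.96 and 3.98 FPKM in PND and 6.16, 4.63 and 4.33 FPKM in CON (0.998-fold, 0.710 to 1.40). Both of these varied more within a group than between the groups. Psma7 was even in PND (6.23, 6.29 and 6.27 FPKM) and uneven in CON (7.01, 6.02 and 8.25 FPKM), with a fitted change of 0.892-fold (0.698 to 1.14).

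In the beta rings, Psmb1, a structural subunit and the most abundant beta gene, had 31.8, 33.0 and 33.7 FPKM in PND and 41.0, 38.3 and 25.0 FPKM in CON. The CON samples lay on both sides of the PND samples, and the fitted change was 0.966-fold (0.713 to 1.31). The largest fitted differences of the constitutive beta genes were those of Psmb6, given above, and of Psmb2, at 1.19-fold (0.845 to 1.66). Psma8, an alpha subunit used in the testis, was low, with 0.134, 0.448 and 0.189 FPKM in PND and 0.552, 0.435 and 0.0821 FPKM in CON (0.835-fold, 0.320 to 2.18), on about 36.8 fragments in all.

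In the cap, the ATPase Psmc6 was the most abundant proteasome gene. It had 89.5, 114 and 83.4 FPKM in PND and 113, 83.9 and 84.4 FPKM in CON. Each group had 1 sample well above the other two, and the fitted change was 1.02-fold (0.780 to 1.34). The least abundant ATPase, Psmc4, had 10.6, 8.20 and 9.50 FPKM in PND and 6.97, 9.96 and 7.71 FPKM in CON, a fitted change of 1.15-fold (0.868 to 1.53). Only CON replicate 2 reached the range of the PND samples. The median log2 fold change was 0.05 over the 6 ATPases, with 4 above 0 and 2 below.

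Among the 11 non-ATPase genes the median log2 fold change was -0.02, with 5 above 0 and 6 below. Psmd7, a scaffold partner of the deubiquitinase, had 54.2, 41.7 and 56.0 FPKM in PND and 39.0, 62.4 and 58.3 FPKM in CON (0.963-fold, 0.693 to 1.34). The lowest of the class, Psmd3, had 3.51, 2.31 and 3.9998 FPKM in PND and 2.16, 3.78 and 3.44 FPKM in CON (1.05-fold, 0.658 to 1.67). Both genes were low in PND replicate 2 and in CON replicate 1. The most even cap gene was Psmd12. It had 21.3, 20.1 and 21.3 FPKM in PND and 20.5, 22.2 and 19.8 FPKM in CON, and its highest value was 1.12 times its lowest, the narrowest range of the 42 genes above 1 FPKM. Its fitted change was 1.005-fold (0.852 to 1.19). Intervals of similar width were found for Psmd1, a large scaffold subunit (0.983-fold, 0.830 to 1.16), and for Psmd14, the deubiquitinase of the cap (1.003-fold, 0.821 to 1.23).

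The activators gave the smallest p of all proteasome genes. Psme3 (PA28 gamma, chr11:101316213-101323537), the nuclear activator, had 34.1, 32.3 and 32.1 FPKM in PND and 33.8, 25.3 and 23.2 FPKM in CON. The PND samples were close together, and only CON replicate 1 reached their range. The means were 32.8 ± 1.10 and 27.4 ± 5.58 FPKM (SD, n = 3 each), a fitted change of 1.21-fold (0.948 to 1.55). Without CON replicate 1 the log2 fold change of 0.28 became 0.43 (limma, unadjusted p below 0.05, adjusted p = 0.83), while 4.59% of all genes then had an unadjusted p below 0.05.

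The interferon-responsive activators Psme1 and Psme2 (PA28 alpha and beta) were lower in level. Psme1 had a mean of 1.95 FPKM (fitted change 1.06-fold, 0.762 to 1.47). Psme2 had 1.09, 0.611 and 0.939 FPKM in PND and 0.569, 0.837 and 0.593 FPKM in CON (1.27-fold, 0.768 to 2.09). Psme2b, which shares 794 bases at 99.4% identity with Psme2, stood 6.42-fold above it on the means, with 5.27, 3.32 and 4.84 FPKM in PND and 2.71, 7.33 and 6.31 FPKM in CON (0.878-fold, 0.477 to 1.62). The fitted changes of this near-identical pair had opposite signs, and how reads were divided between them was not known. Without CON replicate 1 the log2 fold change of Psme2b went from -0.19 to -0.62 (limma, unadjusted p = 0.033, adjusted p = 0.97). In that setting 4.59% of all genes had an unadjusted p below 0.05. Psme4 (PA200) had a mean of 16.5 FPKM and a fitted change of 1.03-fold (0.847 to 1.26). The inhibitor Psmf1 had 2.66, 2.06 and 2.19 FPKM in PND and 2.13, 2.34 and 2.23 FPKM in CON (1.02-fold, 0.762 to 1.38), with PND replicate 1 highest and PND replicate 2 lowest of all.

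No assembly chaperone passed the test. Those of the cap, Psmd5, Psmd9 and Psmd10, had a median log2 fold change of -0.06, with 0 above 0 and 3 below. Psmd10 (gankyrin), the most abundant, had 6.94, 7.02 and 7.36 FPKM in PND and 9.69, 5.73 and 7.14 FPKM in CON (0.967-fold, 0.702 to 1.33). Psmd9 had 0.906, 0.840 and 1.13 FPKM in PND and 0.819, 1.63 and 0.992 FPKM in CON (0.876-fold, 0.534 to 1.44). For both genes the PND values lay inside the range of the CON values. Of the chaperones of the core, Psmg2 had 4.16, 4.06 and 5.53 FPKM in PND and 4.66, 4.06 and 4.99 FPKM in CON (0.997-fold, 0.747 to 1.33). Psmg3 had 0.209, 0.234 and 0.564 FPKM in PND and 0.212, 0.487 and 0.184 FPKM in CON (1.10-fold, 0.513 to 2.35). Each group thus had 1 sample that stood above its other two. Psmg4 was listed at 0 in PND replicate 2, CON replicate 1 and CON replicate 3, and had 0.609, 1.005 and 1.32 FPKM in PND replicate 1, PND replicate 3 and CON replicate 2, on 14.2 fragments in all. Psmc3ip, which acts in meiotic recombination and is named only for binding Psmc3, had 0.371, 0.374 and 0.454 FPKM in PND and 0.482, 0.644 and 0.319 FPKM in CON (0.880-fold, 0.513 to 1.51).

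The samples of a group differed from each other in a way that followed GC content. Over the 42 proteasome genes with at least 1 FPKM, the deviation of a sample from the mean of the gene correlated with the GC content of the gene, with a Spearman rho of 0.02, -0.51 and 0.58 in PND replicates 1 to 3 and -0.50, 0.55 and 0.14 in CON replicates 1 to 3. Over 12323 genes of that level the values were 0.18, -0.45 and 0.57 in PND and -0.61, 0.54 and -0.11 in CON. Both describe genes within the same libraries. Among the 14 proteasome genes with the highest GC content (51.5% to 57.4%), CON replicate 2 was above CON replicate 1 in 11, with a median ratio of 1.50. PND replicate 3 was above PND replicate 2 in 13 of these, with a median ratio of 1.37. Among the 14 with the lowest GC content (37.0% to 46.9%), the counts were 3 and 5, with median ratios of 0.917 and 0.955. The high-GC group holds Psmb5, Psmb6 and Psmb10, and the low-GC group holds Psmc6, Psma2 and Psmb7.

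A correction for GC content, fitted in each sample over all genes, lowered the median within-group SD of the 42 genes from 0.234 to 0.193 on the log2 scale, with a lower SD in 30 of 42. After the correction 0 proteasome genes had an unadjusted p below 0.05. The log2 fold change was then 0.39 for Psmb10, 0.31 for Psmb6, 0.25 for Psme3 and -0.18 for Psma4. The median of the core was 0.06 and that of the cap -0.01. The part of GC content in the differences between samples was described in this way only and was not tested.

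**Figure D4:**
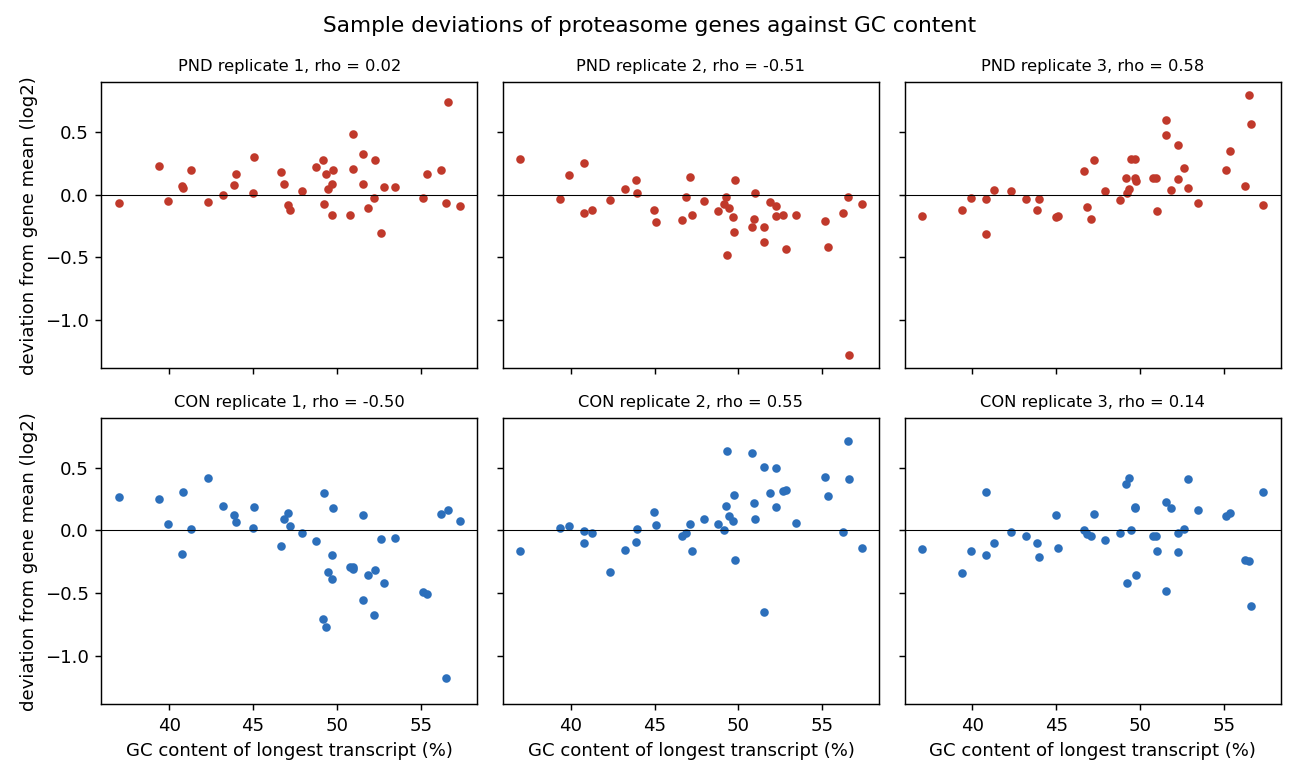
The deviation of each of the 42 proteasome genes with at least 1 FPKM from its mean over the 6 samples (log2), against the GC content of its longest transcript in percent, in 1 panel for each sample, PND in red and CON in blue. Points slope down in PND replicate 2 (rho -0.51) and CON replicate 1 (rho -0.50) and up in PND replicate 3 (0.58) and CON replicate 2 (0.55), so each group holds a sample of either slope.

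The genes that feed, bind or control the proteasome were examined as a list of 43, of which 41 were measured and 40 tested. Their median log2 fold change was 0.05, with 24 above 0 and 16 below. An unadjusted p below 0.05 was reached by 0 genes that were higher in PND and by 1 that was lower, beside the 1.73% and 1.4% of all genes given above. That gene was Rps27a, which encodes a fusion of ubiquitin with a ribosomal protein. It had 3.93, 2.79 and 3.51 FPKM in PND and 3.81, 4.97 and 6.34 FPKM in CON. PND replicate 1 lay just above the lowest CON sample, and the fitted change was 0.690-fold (0.476 to 0.9996). The unadjusted p of 0.0498 in limma (adjusted p = 0.9999) sat at the threshold and passed it in few of the other settings tried. Ubb, which encodes a chain of ubiquitin units, had a fitted change of 0.913-fold (0.598 to 1.39).

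Groups that did not overlap were seen in 6 of the 40 genes tested, against 7.66% of all genes. Pomp, the chaperone that completes the core, had 6.18, 6.19 and 6.27 FPKM in PND and 4.31, 5.78 and 5.04 FPKM in CON (1.24-fold, 0.967 to 1.58). Uchl5, a deubiquitinase bound to the cap, had 5.47, 5.36 and 4.78 FPKM in PND and 6.59, 5.96 and 6.57 FPKM in CON (0.819-fold, 0.659 to 1.02). Tap2, a subunit of the peptide transporter of antigen presentation, had 0.506, 0.354 and 0.795 FPKM in PND and 0.299, 0.298 and 0.182 FPKM in CON (1.77-fold, 0.960 to 3.25). The intervals of Pomp, Uchl5 and Tap2 all include 1. Bach1, a repressor at antioxidant response elements, had 2.62, 3.17 and 2.55 FPKM in PND and 2.48, 2.16 and 2.27 FPKM in CON (1.19-fold, 0.896 to 1.59). Irf1, an interferon-induced transcription factor, had 0.745, 0.658 and 0.628 FPKM in PND and 0.602, 0.575 and 0.241 FPKM in CON (1.42-fold, 0.793 to 2.56). Both were higher in every PND sample, by a narrow margin between the nearest samples. Erap1, a peptidase that trims peptides for antigen presentation, had 3.86, 4.22 and 3.13 FPKM in PND and 5.19, 4.25 and 4.78 FPKM in CON (0.790-fold, 0.597 to 1.05).

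Nfe2l1, the factor known to drive proteasome genes when proteasome activity falls short, had 3.79, 2.94 and 4.04 FPKM in PND and 5.86, 9.67 and 3.74 FPKM in CON. CON replicate 3 lay among the PND samples, and the fitted change was 0.603-fold (0.353 to 1.03). Nfe2l2 had a fitted change of 0.834-fold (0.641 to 1.09). Of the 8 genes on the interferon side, 7 were tested and 0 had an unadjusted p below 0.05, with 5 above 0 and 2 below in log2 fold change. B2m, the light chain of class I molecules, had a fitted change of 1.17-fold (0.661 to 2.09).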

How the data were processed

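Total RNA of the prefrontal cortex was sequenced after removal of ribosomal RNA. Per the methods of the study, the authors filtered reads with Seqtk, aligned them with HISAT2, counted them per gene with StringTie, scaled the counts by TMM and deposited FPKM, in 1 column per animal. Strand use and annotation were not given in the sources used here. The submitters' processing notes also list Bowtie 0.12.2 and the builds mm8 and mm9 with no role.

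Of 21006 identifiers, 20866 had a symbol, exon length and GC content in GENCODE M21 (GRCm38). The groups were compared with limma 3.58.1 in R 4.3.3, using log2(FPKM + 0.1), an intensity trend, no covariate and a minimum mean of 0.1 FPKM. This left 18185 genes, over which p-values were adjusted (Benjamini-Hochberg). The fit was tested on simulated data with large planted changes and no effect of GC content, which says nothing of small differences. Ratios of subunit pairs used an exact permutation test, and near-identical copies were searched with BLAST 2.17.0. Fragment numbers came from the steps of low FPKM values (effective depth 7201406 to 9393042). They are approximate, since only 41.3% to 44.6% of low values came within 0.05 of a whole number.

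The genes, lists and tests were chosen with earlier results of these data known. Values are given in every sample for the immunoproteasome genes, their counterparts, each gene with an unadjusted p below 0.05 or with groups apart, and the most and least abundant gene of each class. Psma7, Psmb2, Psmd1, Psmd12, Psmd14, Psme1, Psme2b, Psme4, Psmc5, Psmg1 and Psmg4, and the pathway genes other than Rps27a, were singled out after their values were seen. Values of some pathway genes are not reported here.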

Additional observations from a re-analysis of the deposited data

How the results depend on the processing

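The number of proteasome genes with an unadjusted p below 0.05 stayed at 0 under every alternative that kept all 6 samples: pseudocounts of 1 and 0.01, no filter, a mean of at least 1 FPKM, median centring, quantile normalization, scaling by FPKM outside the mitochondrial genome, GC correction and no intensity trend. Leaving out 1 replicate gave 0 to 1 genes higher and 0 to 2 lower in PND. Without CON replicate 1 these were Psme3 (higher), Psmc5 and Psme2b (lower), and without CON replicate 2 Psmb6 (log2 fold change 0.70), while 4.59% and 5.28% of all genes had such a p. The lowest adjusted p of these 4 in limma was 0.830 (Psme3). The median log2 fold change ranged from 0.00 to 0.09 in the core and from -0.04 to 0.05 in the cap. In the immunoproteasome it ranged from 0.02 (without CON replicate 1) to 0.48 (without CON replicate 2). That median covered only Psmb8 and Psmb10. With no filter Psmb9 entered too, and at a mean of at least 1 FPKM Psmb10 alone was left. For Psmb9 over Psmb6 the difference of the log2 ratio was -0.18, and 0.47 with a pseudocount of 0.01, because of the value of Psmb9 listed at 0, and with Psmb9 at or under 3 fragments neither value says anything of the groups.

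Of the pathway list, 0 genes were higher and 1 was lower. The number higher was 1 with no intensity trend and 0 to 3 when 1 replicate was left out (2 without PND replicate 2, 3 without CON replicate 1, 1 without CON replicate 2). The number lower was 0 with a pseudocount of 1 or 0.01, no filter, a mean of at least 1 FPKM, or no intensity trend, was 2 with median centring, quantile normalization or GC correction, and was 0 to 1 when 1 replicate was left out. The cause was not tested. Rps27a kept its direction and lost its unadjusted call in 13 settings.

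The replicate numbers shared by the groups come from the sample titles. Same-numbered samples did not deviate together (correlations of -0.049, -0.451 and 0.027 over 12387 genes, mean -0.157, against 0.079 for differently numbered samples), so they were not treated as pairs. With the replicate block 0 proteasome genes and 0 pathway genes had an unadjusted p below 0.05, as did 1.99% of all genes. With the block and the GC correction together, 0 proteasome genes and 1 pathway gene (lower in PND) had such a p. Depth limits Psmb8, Psmb9, Psma8, Psmg3, Psmg4 and Psmc3ip, which had fewer than 60 fragments each.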
